A study of Schizosaccharomyces pombe with 8 samples.

Results

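The genes described here are the amino acid biosynthesis genes of fission yeast (Schizosaccharomyces pombe) as their names give them: every counted feature whose whole name is arg, lys, his, leu, trp, met, ilv, tyr, pha, pro, thr, ser, gdh or cys followed by a number. The rule found 54 of the 6973 features counted, and antisense features do not match it. All 54 had enough reads to be tested. From their RefSeq product names (ASM294v3), 51 of them were counted here as enzymes of amino acid synthesis or factors that these enzymes need. The direction in which an enzyme works was not considered, so both glutamate dehydrogenases are among the 51. The other 3 only share the naming pattern: arg82 encodes an inositol polyphosphate kinase, and trp663 and trp1322 encode TRP-like ion channel proteins. All 54 are kept in the counts, and the 3 are left out wherever enzymes are counted.

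RNA was measured by RNA-seq in 4 homothallic (h90) genotypes with 2 libraries each: the double mutant mot2∆ mamRNA∆ (mamRNA::hygTK, mot2::kanMX), mot2∆ (mot2::natMX), mamRNA∆ (mamRNA::natMX) and wild type (wt). Mot2 belongs to Ccr4-Not, a complex that shortens the poly(A) tails of mRNAs, and attaches ubiquitin to proteins. The non-coding mamRNA transcript is made from a locus next to snoU14. Cells grew at 30 °C in EMM, a minimal medium whose nitrogen source is ammonium, to which the study's methods add leucine and uracil, and were taken in exponential phase. The double mutant carries other drug cassettes than the single mutants, so the cassettes and the strain history cannot be told apart from the combination of deletions. The labels and the methods text used here do not state whether the libraries of a genotype came from separate cultures, so p-values measure only the spread between these libraries, which may be technical.

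Total counts per library were between 22381332 and 34667534. Levels are counts per 1000000 reads (CPM) scaled by TMM, a normalization that takes most features as unchanged. Differences are log2 fold changes ± SE from edgeR's quasi-likelihood test over 6620 features, and a difference is called at a Benjamini-Hochberg adjusted p under 0.05. Transcripts of mot2, the deleted gene, were at 2.72 and 2.77 CPM in mot2∆ mamRNA∆, 4.11 and 4.26 CPM in mot2∆ and 18.9 and 18.8 CPM in mamRNA∆, against 22.3 and 23.4 CPM in wt. No level of mamRNA itself was analysed, and the mamRNA∆ labels are therefore unchecked. The wt libraries stood farthest apart, with a median absolute difference of 0.138 (log2) over the 54 genes, against 0.0305 in mot2∆ mamRNA∆, 0.0746 in mot2∆ and 0.0507 in mamRNA∆. The test pools the spread over all 4 genotypes, so the SE and p-values of comparisons with wt may be too small.

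In minimal medium fission yeast must build from central metabolism and ammonium all amino acids that are not added. Leucine was added here, by the study's methods. Arginine, lysine and histidine each have a pathway of their own, isoleucine and valine share enzymes, leucine branches from the valine precursor, tryptophan, phenylalanine and tyrosine branch from chorismate, and serine, cysteine and methionine are joined through the uptake of sulfate and the transfer of one-carbon units. In budding yeast many of these genes are induced together by the transcription factor Gcn4 when an amino acid runs short. In fission yeast the transcription factor Fil1 has that role.

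The 54 genes were well expressed. The median of their mean levels was 237 CPM, against 40.5 CPM over all features tested. Together they held 2.75% and 2.74% of all counts in the mot2∆ mamRNA∆ libraries, 2.66% and 2.69% in mot2∆ and 1.84% and 1.82% in mamRNA∆, against 2.73% and 2.68% in wt. The mamRNA∆ libraries were thus lowest by this measure. The most abundant of the genes was met26, the enzyme that methylates homocysteine to methionine. Without it the shares were 2.25% and 2.24% in mot2∆ mamRNA∆, 2.10% and 2.07% in mot2∆ and 1.52% in both mamRNA∆ libraries, against 2.03% and 2.00% in wt, and mamRNA∆ was still lowest. Per length, met26 averaged 1880 CPM per kb of exon in mot2∆ mamRNA∆ and 2510 in wt, while arg7 averaged 1.86 in mot2∆ mamRNA∆ and 12.9 in wt.

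**Figure D1:**
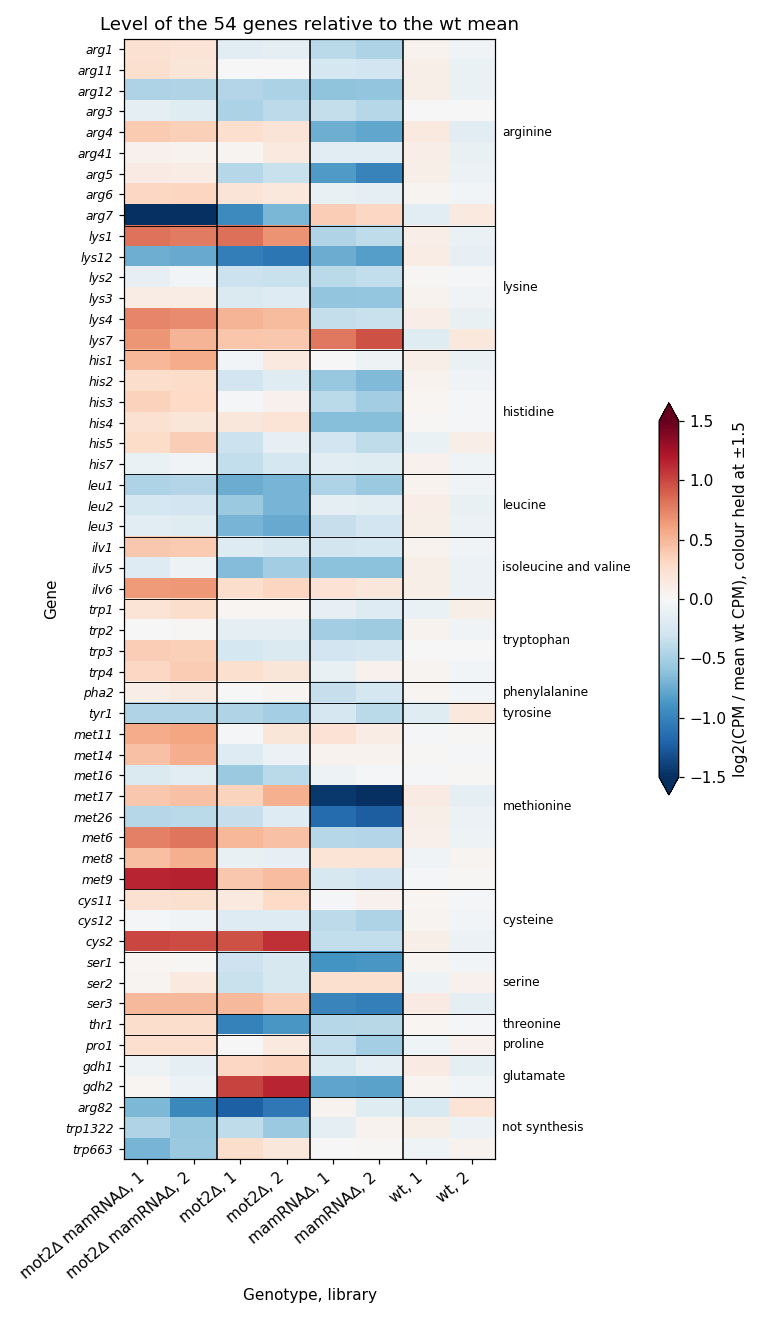
Level of each of the 54 genes (rows, grouped by amino acid) in each of the 8 libraries (columns), as log2 of its CPM over the mean wt CPM, with red above wt and blue below it. The mamRNA∆ columns are mostly blue, with met17, met26, ser3 and arg5 the deepest, the mot2∆ mamRNA∆ columns are mostly pale red, and arg7 is deep blue in mot2∆ mamRNA∆.

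Most of the genes were lower in mamRNA∆ than in wt. Of the 54, 34 were lower and 4 higher, and 16 did not pass the test. Over all features tested 22.7% were lower and 19.9% higher, and over the 1925 features at or above the 54 genes' lower quartile of mean level (95.2 CPM) 22.9% were lower and 22.9% higher. The median log2 fold change of the 54 genes was -0.33, against -0.02 over all features. The RNA came from whole cultures, so fewer cells that express a gene and less of its RNA per cell cannot be told apart. The falls came from most pathways: 6 of the 9 arginine, 5 of the 6 lysine, 4 of the 6 histidine, 4 of the 8 methionine, 2 of the 3 cysteine and 2 of the 3 serine enzymes were lower.

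The largest falls in mamRNA∆ were in sulfur and serine metabolism. met17 encodes homocysteine synthase, which joins sulfide to acetylated homoserine. It stood at 200 and 185 CPM in mamRNA∆, against 591 and 497 CPM in wt. The mamRNA∆ libraries were both far below wt, a 2.83-fold difference (log2 fold change -1.50 ± 0.10, adjusted p = 5.04e-07). met26 was at 3140 and 2960 CPM in mamRNA∆, against 7380 and 6550 CPM in wt. Again the groups did not overlap, and the level was 2.28-fold lower (-1.19 ± 0.11, adjusted p = 4.38e-06). ser3 encodes phosphoglycerate dehydrogenase, the entry step to serine, and was at 743 and 729 CPM in mamRNA∆, against 1610 and 1350 CPM in wt. The difference was -1.01 ± 0.10 (adjusted p = 1.09e-05). These 3 were the only genes of the 54 lower by more than 2-fold, and over all features 1.47% were.

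Smaller falls were found along the same and other pathways. ser1, the aminotransferase that follows ser3, was at 129 and 131 CPM in mamRNA∆, against 247 and 233 CPM in wt (-0.89 ± 0.06). arg5, the small subunit of the arginine-specific carbamoyl-phosphate synthase, was at 160 and 144 CPM in mamRNA∆, against 306 and 270 CPM in wt (-0.92 ± 0.08), and arg4, its large subunit, was at 738 and 719 CPM, against 1360 and 1100 CPM in wt (-0.76 ± 0.10). None of these overlapped between the groups. Both subunits of the enzyme were thus lower. gdh2, the NAD-dependent glutamate dehydrogenase, was at 208 and 206 CPM in mamRNA∆, against 370 and 348 CPM in wt (-0.79 ± 0.08).

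The 4 genes that were higher in mamRNA∆ were lys7, arg7, ser2 and met8. lys7 encodes the phosphopantetheinyl transferase that activates the lysine enzyme Lys1, and had the largest rise, short of the 2-fold that 2.52% of all features passed. It was at 33.6 and 37.6 CPM in mamRNA∆, against 17.1 and 21.7 CPM in wt (0.87 ± 0.11, adjusted p = 6.78e-05), with no overlap. The mot2∆ mamRNA∆ libraries had 30.7 and 27.7 CPM of it and the mot2∆ libraries 25.8 and 25.7 CPM. The count of 4 was small and depended on single libraries: it was 2 without wt replicate 1, 1 without either mamRNA∆ library and 2 without either mot2∆ mamRNA∆ library. Where this leaves 1 library in a genotype, its spread is assumed to be that of the other genotypes. The rise of arg7 was not called without wt replicate 1 or without either library of mamRNA∆ or mot2∆ mamRNA∆.

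In mot2∆ the genes differed from wt in both directions. There 15 of the 54 were higher and 25 lower than in wt, and 14 did not pass. Over all features 29.1% were higher and 30.2% lower, and over the features at or above the genes' lower quartile of level 31.9% were higher and 33.1% lower. The median over the 54 was -0.15, against -0.01 over all features. The count of rises is therefore near the share of all features, and that of falls is above it (27.8% and 46.3% of the 54). All 3 leucine enzymes fell (median -0.72), while both glutamate dehydrogenases rose.

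Only 4 genes changed by more than 2-fold in mot2∆, 2 in each direction, where 4.68% of all features rose and 3.88% fell that far. gdh2 was at 726 and 790 CPM in mot2∆, against 370 and 348 CPM in wt. cys2, annotated as a homoserine O-acetyltransferase, was at 377 and 415 CPM in mot2∆, against 206 and 183 CPM in wt. They were 2.11-fold and 2.04-fold higher with no overlap (1.08 ± 0.08, adjusted p = 3.69e-07, and 1.03 ± 0.08, adjusted p = 5.24e-07). lys12, the homoisocitrate dehydrogenase of lysine synthesis, was at 157 and 152 CPM in mot2∆, against 347 and 296 CPM in wt (-1.06 ± 0.08, adjusted p = 4.54e-07). The fourth was arg82, one of the genes outside amino acid synthesis, at 5.17 and 5.75 CPM in mot2∆, against 10.3 and 13.9 CPM in wt (-1.16 ± 0.17, adjusted p = 9.21e-05). It was at 7.56 and 6.21 CPM in mot2∆ mamRNA∆ and 12.6 and 10.7 CPM in mamRNA∆. thr1, the homoserine kinase of threonine synthesis, was at 83.3 and 92.2 CPM in mot2∆, against 172 and 165 CPM in wt (-0.94 ± 0.07).

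In the double mutant more of the genes were above wt than below it. Relative to wt, 28 of the 54 were higher and 11 lower in mot2∆ mamRNA∆, and 15 did not pass. The background was 28.9% higher and 30.5% lower over all features. Over those at or above the genes' lower quartile of level it was 41.8% higher and 21.8% lower. The falls (20.4% of the 54) were thus near the share of features at or above that quartile. The rises (51.9%) were above that share, but by less than above the share of all features. The median was 0.21, against -0.01 over all features. Of the 8 methionine enzymes 6 were higher, as were 5 of the 6 histidine enzymes, while 2 of the 3 leucine enzymes were lower and neither glutamate dehydrogenase passed.

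The largest rise over wt was that of met9, 1 of the 2 methylenetetrahydrofolate reductases that make the methyl donor for met26. It was at 324 and 327 CPM in mot2∆ mamRNA∆, 194 and 202 CPM in mot2∆ and 124 and 120 CPM in mamRNA∆, against 145 and 149 CPM in wt. It was above wt in the double mutant (1.15 ± 0.06, adjusted p = 4.86e-08) and in mot2∆ (0.43 ± 0.06, adjusted p = 9.29e-05), and below wt in mamRNA∆ (-0.26 ± 0.06, adjusted p = 0.00544). met11, which encodes the other such reductase, differed from wt by 0.57 ± 0.08 in mot2∆ mamRNA∆ (adjusted p = 5.13e-05), and its differences in mot2∆ (0.08, adjusted p = 0.377) and mamRNA∆ (0.17, adjusted p = 0.105) did not pass. Rises of more than 2-fold over wt were found in 3.04% of all features, and met9 was the only one among the 54.

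RefSeq annotates both cys2 and met6 as homoserine O-acetyltransferases, and their activity was not examined here. cys2 was at 388 and 383 CPM in mot2∆ mamRNA∆ and 151 CPM in both mamRNA∆ libraries, and was above wt in the double mutant by 0.99 ± 0.08. met6 was at 614 and 631 CPM in mot2∆ mamRNA∆, 513 and 494 CPM in mot2∆ and 270 and 268 CPM in mamRNA∆, against 382 and 344 CPM in wt. For both genes the double mutant and mot2∆ lay above wt and mamRNA∆ lay below it.

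**Figure D2:**
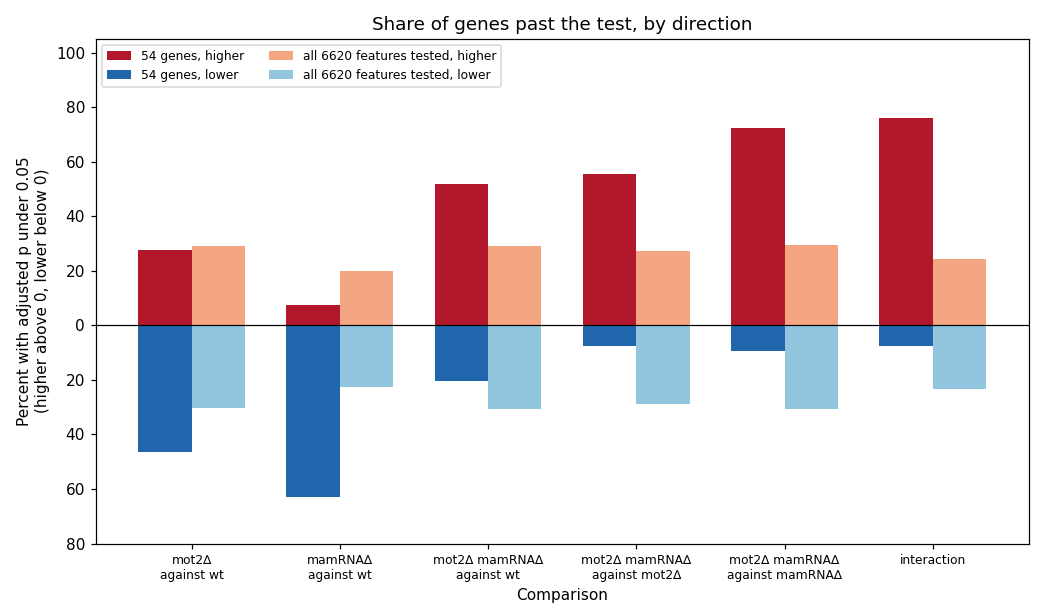
Percent of the 54 genes (dark bars) and of all 6620 features tested (pale bars) with an adjusted p under 0.05, higher (above 0) and lower (below 0), in each of 6 comparisons. Falls prevail among the 54 genes in mamRNA∆ (63.0% against 22.7% of all features), and rises in the interaction (75.9% against 24.4%). Features at or above the genes' lower quartile of level are not drawn. Of these 22.9% were lower in mamRNA∆ and 37.5% were above 0 in the interaction.

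The effect of deleting mamRNA was next compared between cells without and with Mot2. In mot2∆ mamRNA∆, 30 of the 54 genes were higher and 4 lower than in mot2∆, where 27.4% of all features were higher and 28.8% lower (42.4% and 21.2% at or above the genes' lower quartile of level). The median was 0.24, against -0.01 over all features. Of the 34 genes that were lower in mamRNA∆ than in wt, 20 (58.8%) were among the 30 that were higher in mot2∆ mamRNA∆ than in mot2∆ (66.7% of those), a share near the 55.6% of all 54 genes that were higher there. Only gdh2 was lower in both comparisons, which share no library. A rise of more than 2-fold over mot2∆ was seen for thr1 alone and falls that large for arg7 and gdh2, where 2.15% of all features rose and 4.59% fell that far.

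The difference itself was tested as the interaction, which is the log2 fold change of mot2∆ mamRNA∆ against mot2∆ minus that of mamRNA∆ against wt. It is above 0 where the double mutant lies above the sum of the single-mutant changes. It was above 0 for 41 of the 54 genes and below 0 for 4, and 9 did not pass. Over all features 24.4% were above and 23.3% below 0, and over features at or above the genes' lower quartile of level 37.5% were above and 20.7% below. The median over the 54 was 0.58, against 0.00 over all features. No median was taken over features at or above the genes' lower quartile of level. All 41 are among the genes counted as enzymes of amino acid synthesis. They include all 8 methionine, all 6 histidine and all 3 leucine enzymes, 7 of the 9 arginine and 5 of the 6 lysine enzymes. The 4 below 0 were arg7, lys7, gdh2 and trp663.

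**Figure D3:**
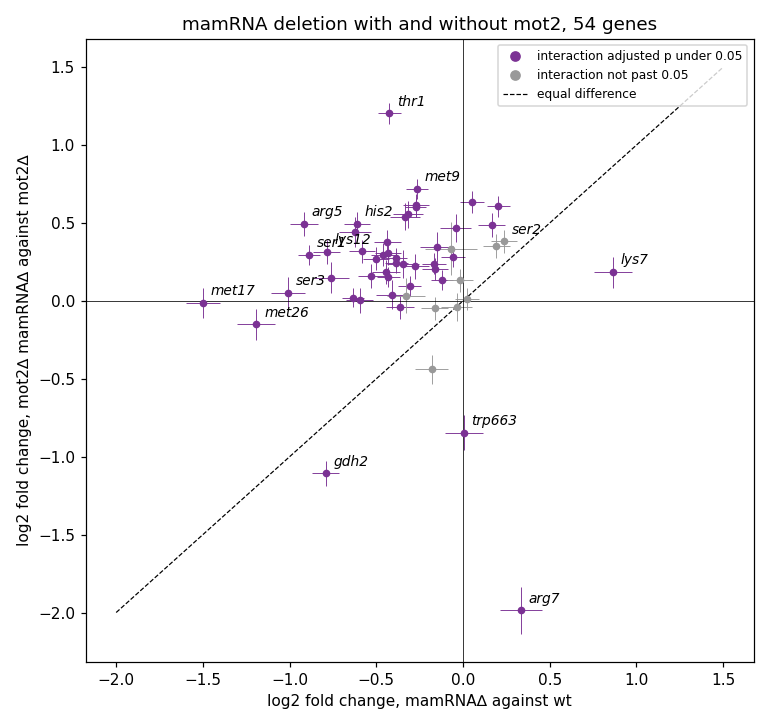
Log2 fold change of mot2∆ mamRNA∆ against mot2∆ (vertical axis) and of mamRNA∆ against wt (horizontal axis) for each of the 54 genes, with bars of 1 SE and a dashed line where both are equal. Most points lie above the line (thr1 farthest, with an interaction of 1.63), and arg7, gdh2, lys7 and trp663 lie below it.

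The interaction exceeded 1 for 9 genes, where 4.46% of all features did, and was under -1 for arg7 alone, where 6.69% of all features were. For met17 and ser3 the double mutant was at the mot2∆ level and not at that of mamRNA∆. met17 was at 721 and 737 CPM in mot2∆ mamRNA∆ and at 685 and 787 CPM in mot2∆ (difference -0.01 ± 0.10, adjusted p = 0.923), and its interaction was 1.49 ± 0.14 (adjusted p = 5.22e-06). ser3 was at 2070 CPM in both mot2∆ mamRNA∆ libraries and at 2080 and 1920 CPM in mot2∆ (0.05 ± 0.10, adjusted p = 0.681), with an interaction of 1.06 ± 0.14. In both genes the mot2∆ mamRNA∆ and mot2∆ libraries overlapped, while both mamRNA∆ libraries were below all others. Against mamRNA∆ the double mutant was 3.79-fold higher for met17 and 2.81-fold higher for ser3.

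For arg5, thr1, ser1 and his2 both single mutants were below wt and the double mutant was not. arg5 was at 314 and 310 CPM in mot2∆ mamRNA∆ and 214 and 229 CPM in mot2∆, and its double mutant did not differ past the test from wt (0.12 ± 0.08, adjusted p = 0.229). thr1 was at 202 CPM in both mot2∆ mamRNA∆ libraries and 125 and 126 CPM in mamRNA∆, so that the double mutant was above every other library. It had the largest interaction (1.63 ± 0.10, adjusted p = 8.82e-08) and the largest rise over mot2∆ (1.20 ± 0.07). ser1 was at 245 and 243 CPM in mot2∆ mamRNA∆ and 194 and 204 CPM in mot2∆, and did not differ past the test between double mutant and wt (0.02 ± 0.06, adjusted p = 0.772). his2, the histidinol dehydrogenase of the last histidine step, was at 381 and 384 CPM in mot2∆ mamRNA∆, 261 and 281 CPM in mot2∆ and 215 and 201 CPM in mamRNA∆, against 330 and 307 CPM in wt.

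lys12 and ilv5 were also below wt in both single mutants. lys12 was at 194 and 191 CPM in mot2∆ mamRNA∆ and 192 and 181 CPM in mamRNA∆, so all 3 mutants were well below wt and the interaction was 1.10 ± 0.11. ilv5, the reductoisomerase of isoleucine and valine synthesis, was at 1260 and 1370 CPM in mot2∆ mamRNA∆, 920 and 1010 CPM in mot2∆ and 941 and 940 CPM in mamRNA∆, against 1530 and 1360 CPM in wt. Its interaction was 1.06 ± 0.13. met26 was the ninth, with 5170 and 5270 CPM in mot2∆ mamRNA∆ and 5500 and 6090 CPM in mot2∆ (interaction 1.04 ± 0.15).

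**Figure D4:**
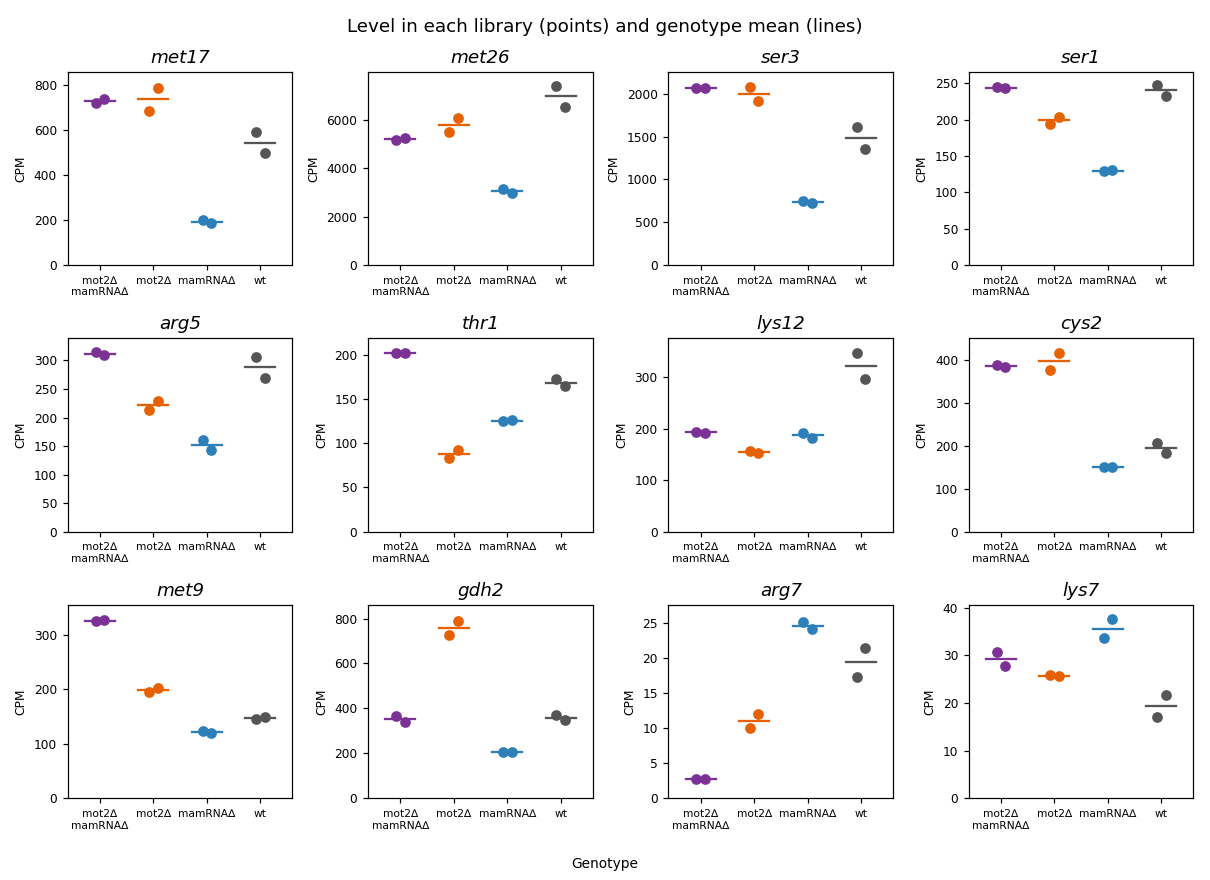
CPM (vertical axes, from 0) of 12 genes in each library (points) with genotype means (lines), for mot2∆ mamRNA∆, mot2∆, mamRNA∆ and wt from left to right. met17, met26, ser3 and ser1 are lowest in mamRNA∆, gdh2 is highest in mot2∆, met9 is highest in mot2∆ mamRNA∆, and arg7 is lowest there.

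Against mamRNA∆, the double mutant was higher for 39 of the 54 genes and lower for 5, where 29.6% of all features were higher and 30.8% lower (42.3% and 24.2% at or above the genes' lower quartile of level). The median was 0.45, against -0.02 over all features. A fall of more than 2-fold was seen for arg7 (5.71% of all features) and rises of that size for 9 genes (4.15% of all features): met17, ser3, met9, cys2, met6, lys1, arg4, lys4 and arg5, with log2 fold changes between 1.92 and 1.04. lys4, the homocitrate synthase at the entry to lysine synthesis, was at 1490 and 1460 CPM in mot2∆ mamRNA∆, against 698 and 709 CPM in mamRNA∆ (1.07 ± 0.09), and at 1270 and 1240 CPM in mot2∆, against 962 and 827 CPM in wt. lys1, the aminoadipate-semialdehyde dehydrogenase, was at 1100 and 1070 CPM in mot2∆ mamRNA∆, against 459 and 481 CPM in mamRNA∆ (1.20 ± 0.09), and at 1110 and 1000 CPM in mot2∆, against 669 and 581 CPM in wt, but prm1 lies across it on the opposite strand. arg4 was at 1610 and 1570 CPM in mot2∆ mamRNA∆ and 1460 and 1410 CPM in mot2∆. Of the 15 genes that rose in mot2∆ against wt, 13 (86.7%) were among these 39 (33.3% of those), which are 72.2% of all 54.

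Against mot2∆ the glutamate dehydrogenases went the other way from most of the 54 genes. gdh2 was at 365 and 339 CPM in mot2∆ mamRNA∆, against 726 and 790 CPM in mot2∆ (-1.11 ± 0.08, adjusted p = 3.7e-07), and its double-mutant libraries did not differ past the test from wt (-0.03 ± 0.08, adjusted p = 0.772). gdh1, the NADP-dependent enzyme that fixes ammonium, was at 1010 and 967 CPM in mot2∆ mamRNA∆, against 1320 and 1360 CPM in mot2∆ (-0.44 ± 0.10, adjusted p = 0.00197). Both fell in this comparison, in which arg7 and trp663 were the only others of the 54 to do so. In 2 other comparisons gdh2 went with most of the 54. It was lower in mamRNA∆ than in wt (-0.79 ± 0.08) and higher in the double mutant than in mamRNA∆ (0.76 ± 0.08). The interaction of gdh1 did not pass (-0.26 ± 0.14, adjusted p = 0.134).

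arg7 departed farthest from the rest. It encodes 1 of the 2 annotated argininosuccinate lyases, which catalyse the last step of arginine synthesis, and lies on chromosome II from 313257 to 314761 (ASM294v3). It was at 2.81 and 2.77 CPM (93 and 84 reads) in mot2∆ mamRNA∆, 10 and 12.1 CPM in mot2∆ and 25.2 and 24.2 CPM in mamRNA∆, against 17.4 and 21.5 CPM in wt. No library of one genotype overlapped another genotype. The level in the double mutant was 6.99-fold lower than in wt (-2.81 ± 0.15, adjusted p = 3.86e-08), and the interaction was -2.32 ± 0.19 (adjusted p = 1.93e-06). More than 2-fold falls against wt were found in 5.76% of all features, and arg7 was the only one of the 54. The other lyase gene, arg41, was at 137 and 136 CPM in mot2∆ mamRNA∆, against 141 and 122 CPM in wt (0.05 ± 0.08, adjusted p = 0.587), and it lies within the span of a gene on the opposite strand.

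The genes around arg7 were looked at after its fall was seen, and are described without a test of the region. Within 20 kb on either side in ASM294v3, 19 other features were tested. In mot2∆ mamRNA∆ 18 of them were lower than wt, 15 (78.9%) by more than 2-fold, with a median of -1.56. Among the 130 features from 20 to 150 kb away, 57 were lower and 27 higher, 16 (12.3%) were lower by more than 2-fold, and the median was -0.20. Within 20 kb the lowest were SPBC1773.12 (-3.28) and SPBC1773.13 (-3.23), and dal52 was at -2.13. Beyond it the non-coding RNA SPNCRNA.1342, 25448 bases away, was at -3.32. car1, an arginase that breaks arginine down, lies 9183 bases from arg7. It was at 10.1 and 10.7 CPM in mot2∆ mamRNA∆, against 36.7 and 34.3 CPM in wt (-1.77 ± 0.08). The other arginase gene looked at, aru1, was at 459 and 493 CPM in mot2∆ mamRNA∆, against 266 and 272 CPM in wt. Of 6 listed genes of amino acid breakdown, 3 were higher and 2 lower there than in wt. Over all features 28.9% were higher and 30.5% lower. In mot2∆ the median within 20 kb was -0.64, and in mamRNA∆ it was 0.19.

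**Figure D5:**
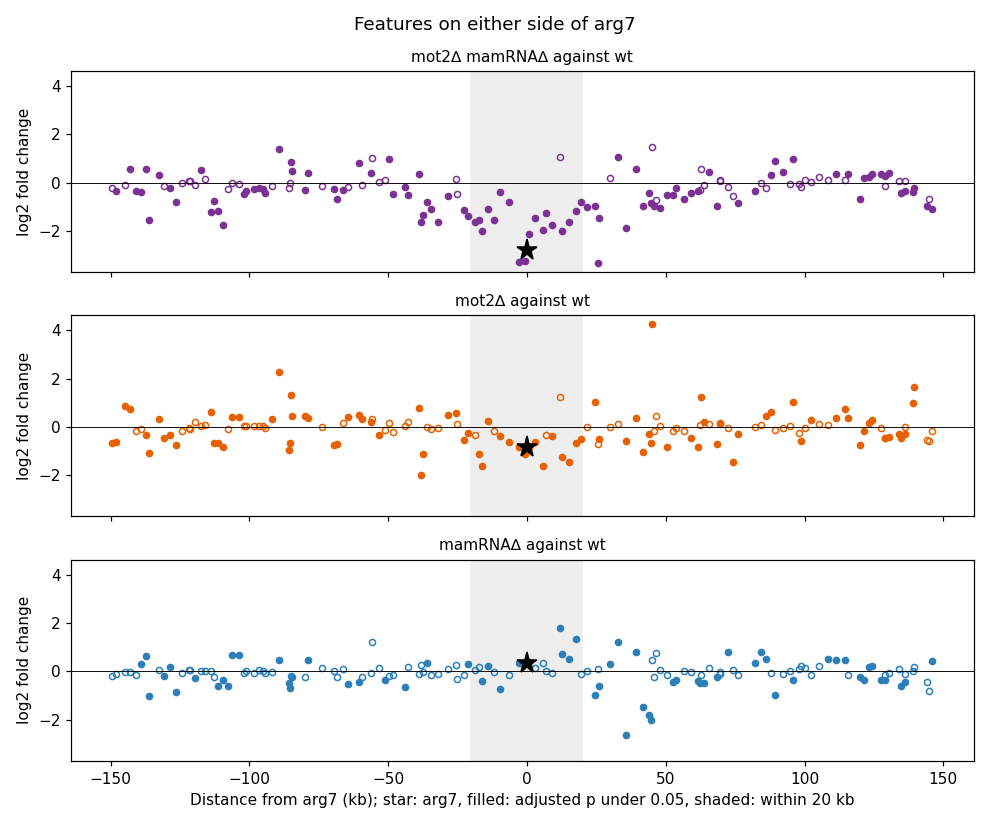
Log2 fold change against wt (vertical axes) of the features within 150 kb of arg7 by distance from it (horizontal axis), in mot2∆ mamRNA∆, mot2∆ and mamRNA∆ from top to bottom. In mot2∆ mamRNA∆ the values near arg7 (star) are mostly below 0, with a median of -1.56 within 20 kb (shaded) and -0.20 beyond it.

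Genes used as auxotrophic markers were checked, since a marker allele could differ between strains. Of 9 such genes (ura4, ade6, leu1, his3, his5, his7, lys1, arg3 and trp1) none was near 0 in any library. ura4, of uracil synthesis, was at 46.4 and 46.2 CPM in mot2∆ mamRNA∆, 39.7 and 39.1 CPM in mot2∆ and 20.2 and 20.7 CPM in mamRNA∆, against 21.3 and 27.1 CPM in wt. ade6, of adenine synthesis, was at 236 and 238 CPM in mot2∆ mamRNA∆, 139 and 150 CPM in mot2∆ and 172 and 163 CPM in mamRNA∆, against 220 and 206 CPM in wt. In mot2∆ the difference from wt was 0.70 ± 0.10 for ura4 (adjusted p = 6.05e-05) and -0.56 ± 0.07 for ade6 (adjusted p = 2.41e-05). The 54 genes ran there from -1.16 to 1.08, with a median of -0.15. Both marker genes thus lay within the range of the 54, with ura4 toward its upper end. Whether an allele of either differs between the strains was not tested. leu1 was at 371 and 376 CPM in mot2∆ mamRNA∆, 304 and 315 CPM in mot2∆ and 371 and 348 CPM in mamRNA∆, against 530 and 490 CPM in wt, with all 3 mutants below wt and no overlap. his3, the histidinol-phosphate aminotransferase, was at 414 and 401 CPM in mot2∆ mamRNA∆, 323 and 341 CPM in mot2∆ and 248 and 227 CPM in mamRNA∆, against 333 and 321 CPM in wt. his5, the imidazoleglycerol-phosphate dehydratase, was at 85.9 and 92.1 CPM in mot2∆ mamRNA∆, 57.2 and 65.2 CPM in mot2∆ and 58.3 and 54.9 CPM in mamRNA∆, against 66.3 and 76.2 CPM in wt. his7, which acts earlier in the pathway, was at 228 and 235 CPM in mot2∆ mamRNA∆, 190 and 203 CPM in mot2∆ and 218 and 216 CPM in mamRNA∆, against 255 and 234 CPM in wt. Of these 3, his3 and his5 were highest in the double mutant and his7 in wt, where it overlapped the double mutant. arg3, the ornithine carbamoyltransferase, was at 116 and 113 CPM in mot2∆ mamRNA∆, 92 and 97.4 CPM in mot2∆ and 100 and 95.1 CPM in mamRNA∆, against 129 and 127 CPM in wt. trp1, of anthranilate synthase, was at 193 and 202 CPM in mot2∆ mamRNA∆, 172 and 171 CPM in mot2∆ and 154 and 147 CPM in mamRNA∆, against 157 and 179 CPM in wt. A point mutation such as a leu1 or lys1 allele cannot be seen in counts. The deleted loci are far from the 54 genes. The nearest are pro1, 207469 bases from mot2, and arg6, 77719 bases from snoU14.

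Other genes of the same metabolism were also counted. Of 17 further synthesis genes listed, 15 were counted. In mamRNA∆ 11 of the 15 were lower than wt and the other 4 did not pass, where 22.7% of all features were lower. The interaction was above 0 for 14, where 24.4% of all features were, and that of the glutamate synthase glt1 did not pass (medians -0.36 and 0.78, against -0.02 and 0.00 over all features). The largest change was that of sam1, which makes S-adenosylmethionine from the product of met26. It was at 1420 and 1490 CPM in mot2∆ mamRNA∆, 1500 and 1610 CPM in mot2∆ and 286 and 294 CPM in mamRNA∆, against 906 and 739 CPM in wt, with an interaction of 1.41 ± 0.14. Both mamRNA∆ libraries were below all others, as they were for met17 and ser3.

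The listed regulators went both ways. Of 9 listed, the interaction was above 0 for fil1, zip1 and cpc2, below 0 for the eIF2α kinases hri1 and hri2, and did not pass for 4. SPCC1393.08, the locus of fil1, was at 1420 and 1400 CPM in mot2∆ mamRNA∆, 1140 and 1090 CPM in mot2∆ and 972 and 990 CPM in mamRNA∆, against 1010 and 923 CPM in wt. It was above wt in the double mutant (0.54 ± 0.09, adjusted p = 1.54e-04), and its differences from wt in mot2∆ (0.20 ± 0.08, adjusted p = 0.0537) and mamRNA∆ (0.02 ± 0.08, adjusted p = 0.876) did not pass.

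Marker genes of other cell states moved with genotype as well. The summed level of 8 stress genes was 4210 and 3880 CPM in mot2∆ mamRNA∆ and 6430 and 5760 CPM in mot2∆. It was 7030 and 7570 CPM in mamRNA∆, against 5700 and 5220 CPM in wt. The interaction was below 0 for 8 of the 8, where 23.3% of all features were. This was not particular to the stress genes. Of the lists that follow, it was below 0 for 9 of 9 mating, 7 of 8 sporulation and 6 of 8 nitrogen starvation genes. It was above 0 for 1 nitrogen starvation gene. The 9 mating genes summed to 555 and 556 CPM in mot2∆ mamRNA∆, 1810 and 1890 CPM in mot2∆ and 394 and 380 CPM in mamRNA∆, against 515 and 458 CPM in wt. The 8 nitrogen starvation genes summed to 1080 and 1050 CPM in mot2∆ mamRNA∆, 2020 and 1900 CPM in mot2∆ and 1650 and 1880 CPM in mamRNA∆, against 1310 and 1120 CPM in wt. In mot2∆ all 9 mating genes and 6 of the 8 nitrogen starvation genes were above wt, with 1 of the 8 below it. Over all features 29.1% were higher there and 30.2% lower. In mamRNA∆ 6 of the 8 stress, 4 of the 8 nitrogen starvation and 6 of the 8 sporulation genes were above wt. Below wt there were 1 nitrogen starvation gene and 6 of the 9 mating genes. Over all features 19.9% were higher in mamRNA∆ and 22.7% lower. The median of the nitrogen starvation genes was 0.48 in mamRNA∆ and 0.45 in mot2∆. Sporulation genes (8) summed to 238 and 252 CPM in mot2∆ mamRNA∆, 1540 and 1510 CPM in mot2∆ and 303 and 309 CPM in mamRNA∆, against 237 and 234 CPM in wt. Their sum in mot2∆ was mostly isp3 (929 and 910 CPM there), with 5 of the 8 genes above wt, spo3 below it, spo6 and spn6 not past the test and a median of 0.58. The part of these cell states in the levels of the amino acid genes was not tested.

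The counts did not separate the strands, which limits what single genes show. his5 had 2840 and 2789 reads in mot2∆ mamRNA∆, and its antisense feature had 2803 and 2788. Likewise prm1, which spans lys1 on the other strand, had 38368 and 34164 reads in mot2∆ mamRNA∆, and lys1 had 36287 and 32318. For 8 genes (lys1, lys2, his3, his4, met14, trp3, arg41 and trp663) a coding gene on the opposite strand covers at least 90.6% of the gene in ASM294v3. Their values may hold reads of that neighbour. Non-coding RNA genes on the opposite strand also cover much of other genes, among them his2 (97.7%), cys2 (91.8%), arg5 (82%), arg7 (59.1%) and thr1 (51.7%). Reads of these RNAs may be included too, and the genes they cover were not left out. Of the 46 genes without the 8 covered by coding genes, the interaction was above 0 for 35 (76.1%) and below 0 for 3 (6.52%). Over all features 24.4% and 23.3% were. Over features at or above the 54 genes' lower quartile of level 37.5% and 20.7% were. In mamRNA∆ 29 (63.0%) of the 46 were lower than in wt. There 22.7% of all features were lower, and 22.9% of those at or above that quartile. No stretch of read length (75 bases) of any of the 54 genes occurred elsewhere in the genome, so near-identical copies did not share exact reads.

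The sequence upstream of each gene was read from RefSeq (ASM294v3), matched by gene name, to show what lies before the genes with the largest interactions. Within 250 bases before the annotated transcript start, GATAA, the core of the motif of GATA factors, occurred on either strand in 35 of the 54 genes (64.8%), against 54.2% of 5112 protein-coding genes. TGACTC, the motif of budding yeast Gcn4, occurred in 2 (3.7%), against 5.63%. Of the 10 genes with an interaction beyond 1 in size, 6 held a GATAA match, and the match nearest the start is shown with 12 bases on each side, 5′ to 3′ on the gene's strand, with the match in capitals (TTATC where GATAA is on the opposite strand). They include 5 genes with an interaction above 0 and arg7, with one below 0.
arg5: aaccgaaatcaaGATAAtcagagcgatta
his2: tgcaaccgcggtTTATCcgaagacatatc
ilv5: caagccgctacgTTATCtttcttttccat
met26: aatctactcactTTATCacgagatctctc
thr1: ataacatatataGATAAtatataactgca
arg7: aaaagctaaaatGATAAgtgcgaatatct
These lie at chrII:4094226-4094254 (plus strand, arg5), chrII:2159767-2159795 (plus strand, his2), chrII:4088215-4088243 (minus strand, ilv5), chrI:1478231-1478259 (plus strand, met26), chrII:3140326-3140354 (minus strand, thr1) and chrII:313167-313195 (plus strand, arg7). All but that of thr1 overlap an annotated non-coding RNA gene. A match is a description of these letters and not a site shown to be bound. lys12, met17, ser1 and ser3 held no match in this window.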

How the data were processed

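RNA of 8 libraries (4 genotypes, 2 each) was sequenced after rRNA depletion as 75 nt pairs. The authors processed the reads with bcl2fastq 2.18.12, Cutadapt 1.15 and Bowtie2 (per the labels and methods) and counted them per feature with MulticovBed, and the deposited values are raw counts, 1 whole number per feature and library. The genome build, the annotation and the strand setting are not given in the sources used here.

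The tests used edgeR 4.0.16 in R 4.3.3 (filterByExpr with a minimum count of 10 and a total of 15, TMM, quasi-likelihood F test, two-sided, all 8 libraries fitted together, Benjamini-Hochberg over 6620 features). A change of more than 2-fold means a log2 fold change beyond 1 in size at an adjusted p under 0.05. CPM use TMM-scaled library sizes. Total counts per library were 22381332 to 34667534, and 3 counts correspond to 0.0865 to 0.134 CPM, for counting error only. The script of the fit was tested on simulated data, which does not measure the error rate of the calls given here. The genes, lists and tests were chosen with earlier results of these data known. Genes given in all libraries were those past the test with more than 2-fold in any comparison, the largest rise and fall in each and the marker genes. Others named were chosen after their values were seen.

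Alternatives were RLE and total-count scaling, other filters, DESeq2 1.42.0, pairwise fits, a replicate block, no antisense features and leaving out each library. Figures were drawn with matplotlib 3.10.9.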

Additional observations from a re-analysis of the deposited data

Results flagged for a closer look

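For these genes the effect of deleting mamRNA differed between cells without and with Mot2, by edgeR's test of the interaction over all features. It was above 0 for 41 of the 54 genes and below 0 for 4, where 24.4% of all features were above and 23.3% below 0 (37.5% and 20.7% of features at or above the genes' lower quartile of level). The values beyond 1 in size were 1.63 for thr1, 1.49 for met17, 1.41 for arg5, 1.18 for ser1, 1.11 for his2, 1.10 for lys12, 1.06 for ilv5, 1.06 for ser3, 1.04 for met26 and -2.32 for arg7. All rest on 2 libraries per genotype and on a double mutant built with other drug cassettes than the single mutants.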

How the results depend on the processing

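Among the 25 genes followed through the alternatives, no value past the test changed sign. Of the differences that did not pass, 10 changed sign in 15 values, among them ser3 and lys1 in mot2∆ mamRNA∆ against mot2∆ (-0.04 and -0.05 with total-count scaling). In a fit of just these genotypes, 8 genes were lower in mot2∆ mamRNA∆ than in mamRNA∆, against 5 in the fit of all libraries. Such fits gave 10 genes higher and 18 lower in mot2∆ than in wt, against 15 and 25 with all libraries. They gave 4 and 33 in mamRNA∆, against 4 and 34, and 26 and 11 in mot2∆ mamRNA∆, against 28 and 11. Leaving out each library in turn gave 1 to 5 genes higher and 27 to 36 lower in mamRNA∆ than in wt, 12 to 16 higher and 19 to 26 lower in mot2∆ than in wt, 20 to 28 higher and 8 to 12 lower in mot2∆ mamRNA∆ than in wt, 21 to 35 higher and 4 lower than in mot2∆, 36 to 41 higher and 4 to 5 lower than in mamRNA∆, and an interaction above 0 for 36 to 42 and below 0 for 3 to 5. Total-count scaling moved the median of all features to -0.11 in the interaction, where 35 genes stayed above 0 and 5 below, with a median of 0.47.

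The replicate numbers did not pair the libraries (r between genotypes from -0.108 to 0.163 over features). With a replicate block 41 genes had an interaction above 0 and 4 below, 34 were lower in mamRNA∆ than in wt, and no count changed by more than 1. With the mamRNA∆ numbers crossed, an alternative chosen after seeing the data like that without the 8 overlapped genes, these counts were 41, 4 and 35.

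Over the named genes, comparisons and alternatives, 2417 values kept their call, 93 were no longer past the threshold and 15 came past it. The falls of met26 and his5 in mot2∆ against wt were lost most often.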
